A study of Mus musculus with 6 samples.

Results

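The chaperones of the endoplasmic reticulum (ER) lumen and their co-chaperones were followed in primary hepatocytes of WT and S100a16KO+/- mice, both alcohol-fed. The group was set by gene name and holds 10 of the 25718 genes in the expression table: Hspa5, Hsp90b1, Hyou1, Dnajb9, Dnajb11, Dnajc3, Dnajc10, Sil1, Calr and Canx. The rule used gene names and no measured value, but the group was chosen with earlier results of these data known. All 10 genes passed the filter on low counts.

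There were 3 libraries per genotype, from male mice that were 8 to 10 weeks old when treated, by the study's methods, before the days of feeding given next. Both genotypes received the control liquid diet for 5 days, then a diet with 5% ethanol by volume for 10 days and 1 ethanol gavage of 5 g/kg, with collection 9 h later. Only alcohol-fed libraries are compared here, so that a genotype difference and a difference in the response to alcohol cannot be told apart. S100a16KO+/- mice carry a heterozygous deletion made with EIIa-Cre, which acts in the whole animal, and keep 1 intact allele; the sample labels call this genotype S100A16 knockdown. The methods give n = 3 per group and do not say whether each library came from a separate mouse, so that p values measure the spread between these libraries.

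Proteins that enter the secretory pathway fold inside the ER. BiP, the product of Hspa5, is the Hsp70 of this compartment. It binds unfolded chains in a cycle driven by ATP, which J-domain proteins start and nucleotide exchange factors reset. GRP94 (Hsp90b1) is the Hsp90 of the lumen, and calreticulin (Calr) and calnexin (Canx) hold newly made glycoproteins through their sugar chains. Hepatocytes secrete most plasma proteins and depend heavily on this machinery, whose genes are well-known targets of the unfolded protein response through ATF6 and XBP1.

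ATF6 acts on a DNA element termed the ER stress response element (ERSE), which reads CCAAT, then 9 bases of any kind, then CCACG. It was searched on both strands of the promoter windows of RefSeq (build GRCm38.p6). Each window runs from 250 bases before to 50 bases after a start that can differ from the gene start given below. The Dnajb9 window (chr12:44210019-44210318) lies inside the gene's position given below, so that no base before that gene start was searched. Windows were given for 8 of the 10 genes, all but Hyou1 and Sil1. Of these 8, 5 held the element, against 0.119% of all 32851 windows. Because genes of this machinery are well-known targets of ATF6 and XBP1, that share describes the windows and is no test. Of the gene lists described below, 2 of 15 other folding factors of the lumen with a window held it (Creld2 and Pdia6). It was in 0 of 8 windows of the calnexin and calreticulin cycle, 0 of 6 of other ER J proteins, and 0 of the remaining lists. The matches are printed to show the element in these 5 members. Capitals mark the ERSE, the lower-case letters are 5 flanking bases on each side, and each is read 5′ to 3′ in the direction of the element.
Hspa5: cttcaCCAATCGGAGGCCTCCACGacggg
Hsp90b1, distal: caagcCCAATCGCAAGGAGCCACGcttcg
Hsp90b1, proximal: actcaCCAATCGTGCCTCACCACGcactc
Calr: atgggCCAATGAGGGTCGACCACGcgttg
Canx: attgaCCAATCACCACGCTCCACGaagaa
Dnajc3: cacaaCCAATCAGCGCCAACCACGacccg
The Hspa5 stretch lies at chr2:34772020-34772048 on the plus strand, in an untranslated part of a Hspa5 exon in GENCODE M21. Those of Hsp90b1 lie at chr10:86705633-86705661 on the minus strand and at chr10:86705528-86705556 on the plus strand. The Calr stretch lies at chr8:84847070-84847098 on the plus strand, that of Canx at chr11:50325795-50325823 on the minus strand and that of Dnajc3 at chr14:118937822-118937850 on the plus strand. Apart from that of Hspa5, none of these 6 stretches overlapped an annotated gene.

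Dnajb11 held the related ERSE-II (ATTGG, then 1 base of any kind, then CCACG), found in 0.0365% of windows, from 8 to 18 bases after its start. It lies in an untranslated part of an exon at chr16:22857847-22857867 on the plus strand and is printed with the ERSE-II in capitals.
Dnajb11: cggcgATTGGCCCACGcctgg
The windows of Dnajb9 and Dnajc10 held neither element. None of the 8 windows held the unfolded protein response element TGACGTGG or the heat shock element (GAA, TTC and GAA, each separated by 2 bases of any kind), which occur in 0.676% and 0.603% of all windows. CCACG ends the ERSE and ERSE-II and overlaps the letters of the reverse TGACGTGG element. A match or its absence describes these letters in this window only.

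The targeted gene differed between genotypes in every library. S100a16 had FPKM values (fragment counts scaled by transcript length and library size) of 7.67, 8.55 and 9.07 in WT replicates 1 to 3 and of 3.52, 3.17 and 2.92 in the S100a16KO+/- replicates. Library totals ran from 67658095 to 71807834 estimated counts. Mitochondrial transcripts took from 17.0% to 21.1% of them, with the highest share of each genotype in WT replicate 1 (21.1%) and S100a16KO+/- replicate 2 (20.1%).

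All 10 chaperone genes were upregulated in S100a16KO+/- hepatocytes. Each had an adjusted p under 0.05 in edgeR's quasi-likelihood test over the 15957 tested genes, of which 11.6% were called higher. None of the 10 was called lower, as 11.2% of tested genes were. The log2 fold changes ran from 0.40 for Sil1 to 2.59 for Hyou1, with a median of 0.82, against a median of 0.01 over all tested genes. Every S100a16KO+/- library lay above every WT library for 10 of 10 genes, a pattern seen in 19.2% of tested genes (18.6% in the other direction, with 0 members). Hspa5, Hyou1 and Dnajb9 were both called and at least 2-fold higher, as were 2.09% of tested genes. Called and at least 2-fold lower were 0 members, against 1.24% of tested genes. The study used an unadjusted p under 0.05 from DESeq2 with a 2-fold limit. With these limits on the edgeR p values, the same 3 genes were called higher, against 463 (2.9%) of tested genes. The study's own number of upregulated genes was lower. The members were well measured, with between 1256 and 140302 estimated counts in any library.

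**Figure D1:**
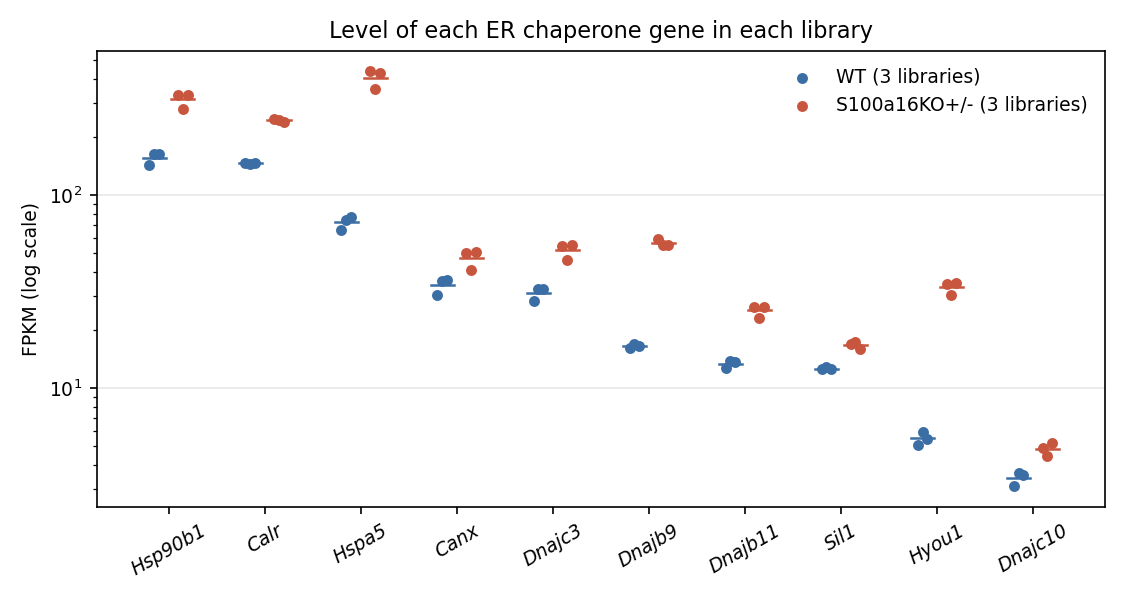
FPKM on a log axis for the 10 genes, ordered by their WT mean, with 1 point per library and a line at the mean of each genotype (n = 3 each). The 3 S100a16KO+/- points lie above the 3 WT points for every gene, with the widest gaps for Hyou1, Hspa5 and Dnajb9.

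Among the Hsp70 and Hsp90 class chaperones, Hspa5 (ENSMUSG00000026864, chr2:34771970-34777547, plus strand, mm10 as for all gene positions here) had FPKM values of 66.1, 74.4 and 77.4 in WT and of 437.5, 353.6 and 428.1 in S100a16KO+/- replicates 1 to 3. The lowest S100a16KO+/- library was thus far above the highest WT library. For the protein, GRP78 (BiP), the study reported a lower level in livers of alcohol-fed S100a16KO+/- mice. Liver protein and hepatocyte RNA are unlike measures, and the difference in direction was not tested. Its log2 fold change in edgeR was 2.47 with a standard error of 0.06 (adjusted p = 1.48e-12), the 66th largest rise of all tested genes.

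Hyou1 (ENSMUSG00000032115, chr9:44379490-44392369, plus strand) encodes GRP170, a large Hsp70 relative that releases nucleotide from BiP and also holds unfolded chains. Its FPKM values were 5.08, 5.90 and 5.45 in WT and 34.6, 30.3 and 35.0 in S100a16KO+/- hepatocytes. This was a 6.04-fold rise (log2 fold change 2.59, standard error 0.06, adjusted p = 4.28e-13 from edgeR), the largest of the group. Hyou1 was far below Hspa5 in level in both genotypes.

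Hsp90b1 (ENSMUSG00000020048, chr10:86690209-86705509, minus strand) had FPKM values of 143.9, 162.5 and 163.3 in WT and of 331.0, 280.9 and 328.6 in S100a16KO+/- hepatocytes. In edgeR it rose by 0.99 on the log2 scale with a standard error of 0.05 (adjusted p = 2.88e-09), just under 2-fold; it was 1.01 without WT replicate 3 and 1.03 without S100a16KO+/- replicate 2. Gm15344 lies inside Hsp90b1 on the same strand and 1810014B01Rik overlaps it on the other strand. Neither reached 1% of the Hsp90b1 count in any library (at most 0.591% and 0.625%).

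The J-domain co-chaperones rose by unequal amounts. Dnajb9 (ENSMUSG00000014905, chr12:44205559-44210326, minus strand) encodes ERdj4, which delivers misfolded proteins for degradation and keeps BiP on the stress sensor IRE1. It had FPKM values of 16.2, 16.8 and 16.4 in WT and of 59.2, 55.1 and 54.9 in S100a16KO+/- hepatocytes, a 3.40-fold rise (log2 fold change 1.77, adjusted p = 4.05e-11 from edgeR). Of its 31-base words, 10.8% also occur in the pseudogene Gm6568 or other transcripts, but Gm6568 had at most 11 counts in any library.

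Dnajb11 (ENSMUSG00000004460, chr16:22857845-22872465, plus strand) encodes ERdj3, a co-chaperone that itself binds nascent chains. It had FPKM values of 12.6, 13.8 and 13.6 in WT and of 26.2, 23.1 and 26.4 in S100a16KO+/- hepatocytes (log2 fold change 0.91, adjusted p = 1.89e-08 from edgeR). Dnajc3 (ENSMUSG00000022136, chr14:118937976-118981697, plus strand) encodes P58IPK, which is known as an inhibitor of the kinase PERK and as a luminal partner of BiP. Its FPKM values were 28.2, 32.7 and 32.5 in WT and 54.7, 46.0 and 55.0 in S100a16KO+/- hepatocytes (log2 fold change 0.73, adjusted p = 3.04e-07 from edgeR). Both log2 fold changes were below that of Dnajb9, a difference that was not tested.

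Dnajc10 (ENSMUSG00000027006, chr2:80315466-80354043, plus strand) encodes ERdj5, a reductase that opens disulfides of proteins bound for degradation, and was the least abundant member. Its FPKM values were 3.11, 3.63 and 3.54 in WT and 4.89, 4.42 and 5.21 in S100a16KO+/- hepatocytes, a 1.40-fold rise (adjusted p = 0.000193 from edgeR). Sil1 (ENSMUSG00000024357), the second nucleotide exchange factor of BiP, showed the smallest rise of the group. It had 12.5, 12.8 and 12.5 FPKM in WT and 16.9, 17.3 and 15.9 FPKM in S100a16KO+/- hepatocytes, a 1.32-fold rise (log2 fold change 0.40, standard error 0.07, adjusted p = 0.000665 from edgeR). The exchange factors Hyou1 and Sil1 thus had the largest and the smallest log2 fold change of the 10 genes. In level, Sil1 was above Hyou1 in every WT library and below it in every S100a16KO+/- library.

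Both lectin chaperones were higher. Calr (ENSMUSG00000003814, chr8:84841850-84846934, minus strand), which encodes the soluble calreticulin, had FPKM values of 147.4, 144.7 and 146.9 in WT and of 248.6, 243.9 and 240.3 in S100a16KO+/- hepatocytes, a log2 fold change of 0.73 (adjusted p = 2.83e-07 from edgeR). Canx (ENSMUSG00000020368, chr11:50293961-50325673, minus strand), which encodes the membrane-bound calnexin, had 30.4, 36.0 and 36.3 FPKM in WT and 50.3, 40.8 and 50.6 FPKM in S100a16KO+/- hepatocytes (log2 fold change 0.45, adjusted p = 0.000100 from edgeR). Of the 10 genes, Canx had the largest adjusted p in any alternative fit (0.0180). The 5 genes with an ERSE in their window (Hspa5, Hsp90b1, Calr, Canx and Dnajc3) spanned log2 fold changes from 0.45 to 2.47. Dnajc10, whose window held neither the ERSE nor the ERSE-II, had 0.49, and Dnajb11, with the ERSE-II alone, had 0.91. Dnajb9, with no ERSE in a window that lay inside the gene, had 1.77. Hyou1 and Sil1 had no window.

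**Figure D2:**
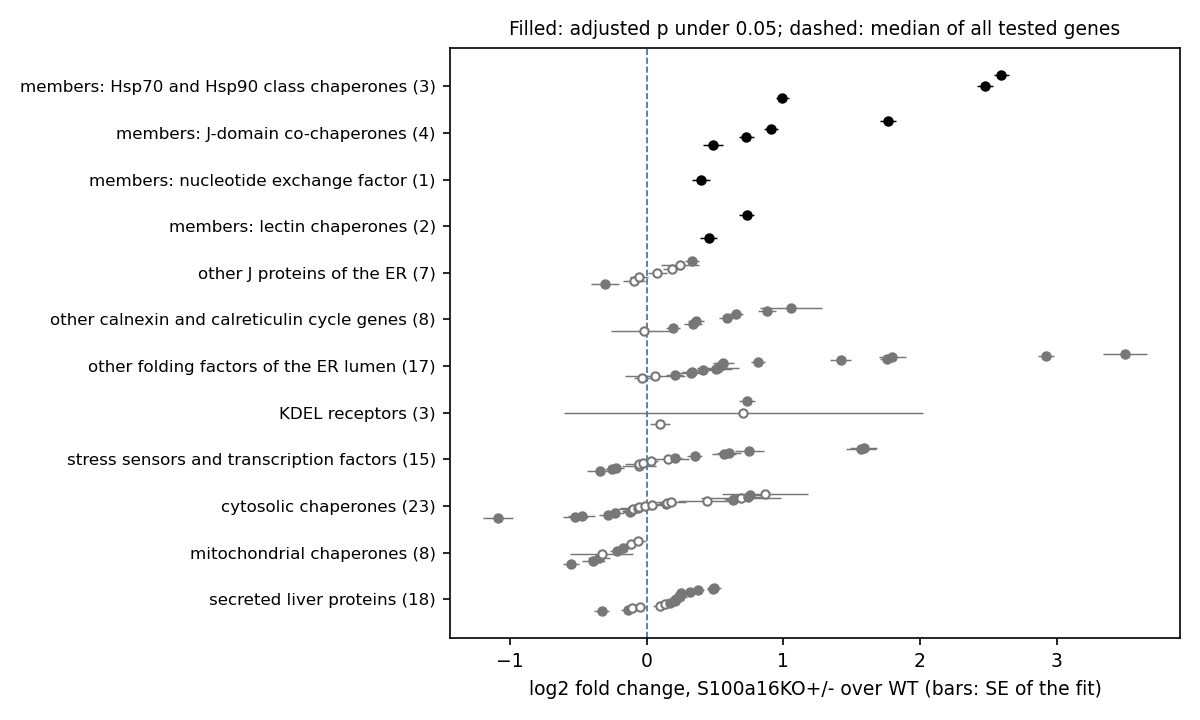
log2 fold change of S100a16KO+/- over WT hepatocytes, with the standard error of the edgeR fit, for each tested gene of the group (black) and of the other gene lists (grey), with the number of genes in parentheses. All black points are filled and lie right of the dashed median of all tested genes, while the mitochondrial chaperones lie left of it.

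The order of the levels changed between genotypes. In WT hepatocytes Hsp90b1 (156.6 ± 11.0 FPKM, SD, n = 3) and Calr (146.3 ± 1.46) were highest, with overlapping libraries, followed by Hspa5 (72.6 ± 5.85). Canx and Dnajc3 overlapped each other, as did Dnajb11 and Sil1. In S100a16KO+/- hepatocytes Hspa5 was highest (406.4 ± 46.0 FPKM), followed without overlap by Hsp90b1 (313.5 ± 28.3) and Calr (244.3 ± 4.19). Dnajb9 rose from the sixth to the fourth place and overlapped Dnajc3, which overlapped Canx. Hyou1 moved from the ninth to the seventh place, above Dnajb11 and Sil1.

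The FPKM values of the 10 genes came to a total of 465.5, 503.2 and 508.0 in WT replicates 1 to 3 and of 1263.8, 1095.2 and 1240.0 in the S100a16KO+/- replicates, a 2.44-fold difference of the means. Hspa5 made up 47.2% of the increase, Hsp90b1 22.2% and Calr 13.8%. The share of Hspa5 in the sum was 14.7% ± 0.519 in WT and 33.8% ± 1.32 in S100a16KO+/- hepatocytes (SD, n = 3 each). Hyou1 and Dnajb9 also took larger shares, Hyou1 2.77% against 1.11% and Dnajb9 4.71% against 3.35%. The other 7 genes took smaller shares although each of them rose, and Calr had the largest drop, from 29.8% to 20.4%.

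**Figure D3:**
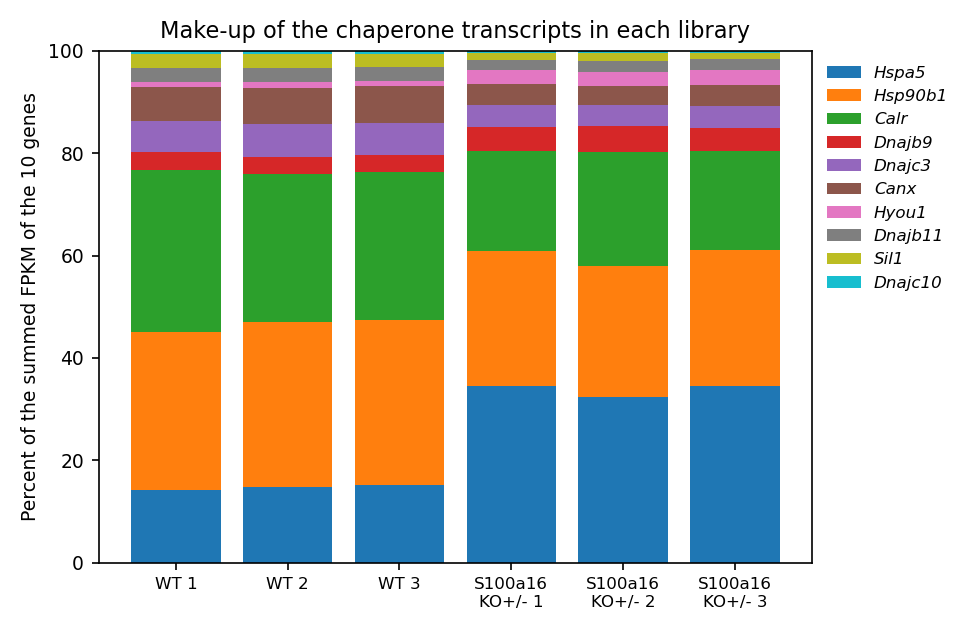
Share of each gene in the summed FPKM of the 10 genes, in percent, stacked for each of the 6 libraries. The Hspa5 segment spans 14.2% to 15.2% across WT and 32.3% to 34.6% across S100a16KO+/- replicates.

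Ratios of a partner to Hspa5 within a library do not depend on how libraries are scaled. The 4 J-domain genes together had 0.909, 0.899 and 0.854 FPKM per FPKM of Hspa5 in WT and 0.331, 0.364 and 0.331 in the S100a16KO+/- replicates. Of the 9 partner genes, 8 had a lower ratio to Hspa5 in every S100a16KO+/- library than in any WT library. The ratios and the shares restate the differences given above, where only Hyou1 rose more than Hspa5, and add no separate support. The ratio was 4.22 times lower for Sil1 (0.174 ± 0.0143 against 0.0415 ± 0.00640), 2.79 times lower for Hsp90b1 and 1.63 times lower for Dnajb9 (SD, n = 3 each). Each of these 8 had p = 0.1 in a two-sided exact permutation test, the smallest value that 3 libraries against 3 allow, and an adjusted p of 0.113 over the 9 ratios, so that this design could not reach 0.05.

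Hyou1 was the exception. Its ratio to Hspa5 was 0.0768, 0.0793 and 0.0705 in WT and 0.0790, 0.0856 and 0.0819 in S100a16KO+/- hepatocytes, with overlapping libraries (exact permutation p = 0.2, adjusted p = 0.2). Over the libraries left out in turn, the log2 change of this ratio stayed between 0.07 and 0.16. By the distance between gene-centred log2(CPM + 1) profiles over the 6 libraries, Hyou1 was also nearer to Hspa5 (0.190) than any of the 6540 other genes whose mean reached 10 CPM.

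The 5 nearest of those other genes were Fst (distance 0.317), Gpcpd1 (0.443), Syvn1 (0.477), Manf (0.530) and Nr4a1 (0.547), against a median distance of 3.08. Fst encodes the activin antagonist follistatin, Gpcpd1 a glycerophosphocholine phosphodiesterase, Syvn1 the ubiquitin ligase HRD1 of ER-associated degradation, and Nr4a1 an orphan nuclear receptor. Their log2 fold changes were 2.69, 2.13, 2.21, 2.92 and 2.25 in the same order. With 2 groups of libraries this measure mostly compares the genotype difference, and Fst was low, at 27.5 to 30.3 CPM in S100a16KO+/- hepatocytes.

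The spread within a genotype was shared by most members. By FPKM and after TMM scaling alike, Hspa5, Hsp90b1, Hyou1, Dnajb11, Dnajc3, Dnajc10 and Canx were each lowest in WT replicate 1 among the WT libraries and lowest in S100a16KO+/- replicate 2 among the S100a16KO+/- libraries. Dnajb9, Sil1 and Calr were each highest in these libraries of their genotype after TMM scaling, but this order depended on the scaling. By FPKM, only Calr was highest in WT replicate 1 and only Sil1 in S100a16KO+/- replicate 2, and Dnajb9 was lowest in WT replicate 1. The TMM factors of these libraries were the lowest of their genotypes (0.951 and 0.948). WT replicate 1 and S100a16KO+/- replicate 2 are also the libraries with the highest mitochondrial shares, and the part of library quality in this spread was not tested. The largest deviation of log2(CPM + 1) from a genotype mean was 0.13, for Sil1 in S100a16KO+/- replicate 2, beside a log2 fold change of 0.40 for that gene. The gap between the highest WT and the lowest S100a16KO+/- library was narrowest for Sil1 (0.20 on the log2 scale of TMM-scaled CPM). With both libraries left out, 10 of 10 genes were still called higher and the median log2 fold change was 0.83.

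**Figure D4:**
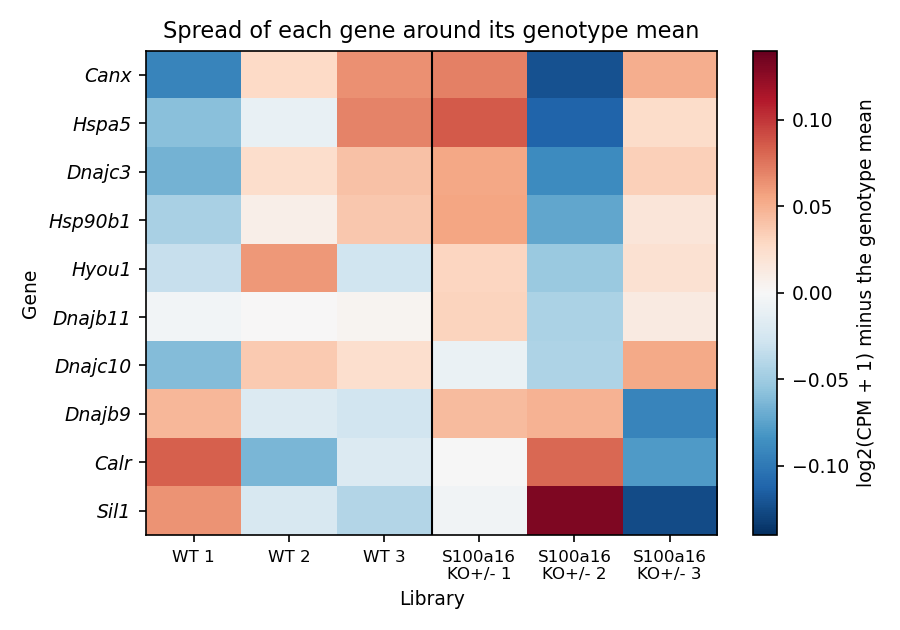
Difference of log2(CPM + 1) from the mean of its genotype after TMM scaling, for each gene (rows) in each library (columns), from blue (below) to red (above). Dnajb9, Calr and Sil1 show the opposite sign to the other 7 genes in WT replicate 1 and S100a16KO+/- replicate 2.

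Other genes of ER folding rose with the group. Of 17 other folding factors of the lumen, 15 were called higher and 0 lower, with a median log2 fold change of 0.54. Creld2 (log2 fold change 3.50), Manf (2.92, a gene the study singled out from these same libraries), Sdf2l1 (1.80), Pdia4 (1.76) and Hspa13 (1.42) rose at least 2-fold; Sdf2l1 is a partner of ERdj3, and Pdia4 a disulfide isomerase. Cnpy4 (0.06) and Lrpap1 (-0.03) were not called. Of 8 measured genes of the calnexin and calreticulin cycle, 7 were called higher and 0 lower (median 0.47). They included Uggt1 (0.88), which marks misfolded glycoproteins for another round, and Pdia3 (0.65), the disulfide isomerase that calnexin and calreticulin recruit. Calr3, a relative of Calr, was at -0.02 (adjusted p = 0.965 from edgeR).

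Of 7 other J proteins of the ER, Sec63, the J protein of the translocon, was called higher (log2 fold change 0.33) and Dnajb14 lower (-0.30, adjusted p = 0.0460 from edgeR), and 5 were not called, with a median of 0.08. The call of Dnajb14 was lost when any of WT replicates 1 to 3 or S100a16KO+/- replicates 1 and 2 was left out, with both libraries of the highest mitochondrial share left out, without the filter on low counts, and in DESeq2 and limma. Among the KDEL receptors, which return luminal chaperones from the Golgi, Kdelr2 was called higher (0.73) and Kdelr1 (0.10) and Kdelr3 (0.71 on low counts) were not.

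Of 15 stress sensors, transcription factors and related regulators, 7 were called higher and 3 lower. The largest rises were those of Eif2ak3 (log2 fold change 1.59), which encodes PERK, and Ficd (1.57), the enzyme that attaches AMP to BiP and removes it. Atf6b (0.75), Ddit3 (0.60), Ppp1r15a (0.57), Atf4 (0.35) and Atf6 (0.21) were higher as well. For ATF4 and ATF6 protein in liver, the study reported lower levels in alcohol-fed S100a16KO+/- mice, with less phosphorylation of IRE1α and EIF2α. From the present libraries, it reported that the ER stress pathway was among the processes affected. Liver protein and hepatocyte RNA are unlike measures, and the difference in direction was not tested. Xbp1 (-0.22), Creb3l3 (-0.25) and Nfyb (-0.34) were lower; these are levels of the whole Xbp1 transcript, and its spliced form was not measured. Without S100a16KO+/- replicate 1, 1 of the 15 was called lower.

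Among the chaperones outside the ER, of 23 cytosolic genes, 4 were called higher and 5 lower, with a median log2 fold change of -0.01. Hspa8, the constitutive cytosolic Hsp70, rose by 0.63 (63.0 ± 2.15 against 98.0 ± 3.89 FPKM, SD, n = 3 each), as did Hsph1 (0.75), Bag3 (0.74) and Dnajb4 (0.64), and Hspb1 fell the most (-1.08). Of the cytosolic relatives of Hsp90b1, Hsp90aa1 fell (-0.52, adjusted p = 0.000910 from edgeR) and Hsp90ab1 was at -0.12 (adjusted p = 0.0797). Of 8 mitochondrial genes, 0 were called higher and 5 lower (median -0.27), among them Hspd1 (-0.55), Hspe1 (-0.39) and Hspa9 (-0.22), the Hsp60, Hsp10 and Hsp70 of that compartment. With limma on log2(FPKM + 1), the lower calls were 1 of the 8 mitochondrial and 2 of the 23 cytosolic genes; without WT replicate 3, they were 3 of the 23.

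Of 18 secreted liver proteins, which pass through the ER, 11 were called higher and 2 lower, and their median log2 fold change was 0.21; 0 changed by 2-fold. The largest rises were those of Fgb (0.50), a fibrinogen chain, and Hpx (0.48), the heme carrier hemopexin, while Ttr (-0.33) and Trf (-0.14) were lower. Alb was at -0.05 (33701 ± 409.0 against 32703 ± 217.0 FPKM, SD, n = 3 each). With 1 library left out, the number called lower was 1 in 5 of the 6 cases.

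The libraries carried hepatocyte transcripts at very high levels, and the 8 hepatocyte markers summed to 46976 to 47922 FPKM in WT and 46150 to 46965 FPKM in S100a16KO+/- libraries, with 1 called higher and 2 lower. Markers of some other cell types moved with the genotype, beside 22.8% of all tested genes called in either direction. The 5 erythroid markers all fell, from a sum of 260.6 to 287.9 FPKM to one of 25.2 to 26.2 FPKM. Of 7 sinusoidal endothelial markers 6 rose and Lyve1 fell (sums of 37.7 to 41.7 against 54.0 to 57.0 FPKM), and 4 of 7 stellate cell markers rose (7.20 to 7.36 against 12.6 to 13.2 FPKM). Of 8 macrophage markers, only Marco and Cd68 were called, both higher, and the sums overlapped (46.1 to 57.0 against 53.5 to 60.9 FPKM). Of the 6 B and plasma cell markers 0 were called; they summed to 5.19 to 6.29 FPKM in WT and to 3.79 to 5.50 FPKM in S100a16KO+/- libraries. The cholangiocyte markers, of which Sox9 fell, and the neutrophil and T or NK markers, of which 0 were called, stayed at or below 6.31 FPKM in sum. The part of these cells in the chaperone result was not tested, and in such bulk samples fewer cells of a type and less RNA per cell cannot be told apart.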

How the data were processed

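RNA of 6 primary hepatocyte libraries was compared, 3 per genotype, grouped by the sample titles. The authors deposited 1 table with an estimated count, not scaled for depth, and an FPKM value, scaled by transcript length and library size, for each gene and library. The submitters' processing notes name cutadapt 1.9, HISAT2 2.0.4, StringTie 1.3.4d, UMI-tools, DESeq2, edgeR and mm10, without their roles. Low counts piled up at 4 (936 genes of WT replicate 1, beside 561 genes at 3 and 259 at 5), so 1 fragment was worth about 4 counts. Counting error is therefore larger than the counts alone would give, and counting by strand is not stated.

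Counts were rounded, scaled by TMM and tested with edgeR 4.0.16 in R 4.3.3 (filterByExpr, robust quasi-likelihood fit, two-sided, no covariate), with Benjamini-Hochberg adjustment over 15957 genes and a call at an adjusted p under 0.05. The same code was tested on simulated data. FPKM was used for levels between genes, and ratios were tested by exact permutation. Members and lists were chosen with earlier results of these data known. Genes named are the members, genes of the lists, S100a16, overlapping genes, and the 5 nearest to Hspa5. Motifs, 31-base words shared with other GENCODE M21 transcripts, and RefSeq promoter windows were read from the references. Alternatives used limma 3.58.1 and DESeq2 1.42.0.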

Additional observations from a re-analysis of the deposited data

How the results depend on the processing

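Under 16 alternative settings, 10 of 10 chaperone genes were called higher. These were the replicate block, each library left out, median-ratio size factors, TMM without the 20 most abundant genes, no filter, a mean of at least 4 CPM, DESeq2, limma voom, limma on log2(FPKM + 1) and log2(FPKM + 0.1), and counts divided by 4. The same held with both libraries of the highest mitochondrial share left out, an alternative chosen after seeing the data. The median log2 fold change of 0.82 ranged from 0.81 to 0.85 with each library left out, and from 0.80 to 0.85 over all alternatives. The number at least 2-fold higher was 3 or 4, with Hsp90b1 at the limit. The number called among the other lists, 62, ranged from 46 (limma on FPKM) to 65. No log2 fold change of the 10 genes, and no ratio of theirs to Hspa5, changed sign under the alternatives run for it.

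The correlations of same-numbered deviations were -0.05, -0.02 and 0.05 over 15957 genes. That of WT replicate 1 with S100a16KO+/- replicate 2 was 0.08. These values gave no sign of pairing by replicate number, but with 3 libraries per genotype they cannot show how the libraries were prepared. With the replicate number as a block, the median was 0.82, 10 of 10 genes were called, 3 at least 2-fold, and 56 genes of the other lists; the call of Dnajb14 was lost. For the ratios to Hspa5 the median log2 change stayed at -1.74, with p = 0.25 when signs were permuted within number (exact), the smallest value possible.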
